A study of Mus musculus with 10 samples.

Results

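The genes described here encode the actomyosin machinery: myosin heavy and light chains, unconventional myosins, tropomyosins, troponins, alpha-actinins and actins, with desmin (Des) and muscle creatine kinase (Ckm). They were taken by symbol alone: Myh, Myl, Myo, Actn, Tpm, Tnni, Tnnt or Tnnc followed by a digit, plus Acta1, Acta2, Actb, Actc1, Actg1, Des and Ckm. This gave 62 of the 17493 genes in the table, with no row for Actc1. By their known isoform type 24 were classed as muscle genes, 34 as non-muscle genes, 3 as tropomyosin genes that make both kinds of product (Tpm1, Tpm2 and Tpm3), and 1, the light chain gene Myl10, as neither. RNA was sequenced from Th17 cells, helper T cells that make IL-17, kept with the compound TMP269 or with its vehicle DMSO, with 2 libraries in each group. TMP269 is an inhibitor selective for class IIa histone deacetylases. In both groups the cells were naive CD4+ T cells from the spleen of C57BL/6 mice, activated on plates coated with antibodies to CD3 and CD28 in IL-6 (20 ng/mL) and TGF-beta (2.5 ng/mL) for 48 to 72 h. Neither the dose and duration of TMP269 nor the age and number of mice is given in the sources used here.

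In non-muscle cells, filaments of myosin II pull on actin filaments, tropomyosins coat those filaments and alpha-actinins crosslink them. Unconventional myosins move along or tether actin singly, carrying cargo or holding membrane to the cortex. T cells use this machinery to crawl, to form the synapse with an antigen-presenting cell and to divide. In striated muscle, other members of the same families build the sarcomere, in which troponin makes contraction depend on calcium. Class IIa histone deacetylases are best known in muscle as partners that repress MEF2 transcription factors, which drive many sarcomere genes.

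Values are normalised reads, that is each library's read counts divided by its size factor. They are not divided by transcript length, so levels of different genes are not ranked against each other. The 4 libraries held 20007042 to 25321455 reads. T cell markers were present in all of them: the CD3 chain gene Cd3e was at 4097 to 4821 normalised reads and Cd4 at 8263 to 9479. DMSO replicate 2 stood apart, with 2.20% of its reads in the ribosomal RNA gene Rn45s against 0.716% to 1.12% in the other libraries. A gene was tested where at least 2 libraries reached a value of 10, and was called where limma's p, adjusted by Benjamini-Hochberg over the 12535 genes tested, was under 0.05. Of the 62 members 41 were tested, and 2 of these passed the filter through 1 group only, Myo16 through DMSO and Myo18b through TMP269.

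Promoter sequences are shown for the members in which a CArG box, the motif known to bind serum response factor (SRF), was found, because the motif appeared both in genes that these cells express and in genes at or near 0 reads. Promoters of 52 of the 62 members were matched by symbol in RefSeq (build GRCm38.p6), each a window of 250 bases before and 50 after a start site, and both strands were searched without mismatch. The box is 2 C, 6 bases that are A or T, and 2 G. It was present in 5 of 66 member promoters, each from a different gene, and in 1.63% of all 32851 promoters of that length. The MEF2 motif, searched in the same way, was in 0 of the 66 and in 3.19% of all. Only bases before the start are printed, with the match in capitals. The windows are chr8:123894789-123894898 (minus strand, skeletal alpha-actin), chr11:5898784-5898893 (minus strand, atrial regulatory light chain), chr11:120348526-120348635 (minus strand, cytoplasmic gamma-actin), chr10:128493010-128493109 (minus strand, the essential light chain of non-muscle myosin, 1 of 2 starts listed) and chr9:70207268-70207349 (plus strand, a class I myosin).
Acta1: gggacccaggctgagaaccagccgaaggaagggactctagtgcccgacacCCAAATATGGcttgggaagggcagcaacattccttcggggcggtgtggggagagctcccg
Myl7: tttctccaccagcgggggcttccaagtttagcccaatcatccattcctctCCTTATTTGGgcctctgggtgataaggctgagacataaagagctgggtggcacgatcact
Actg1: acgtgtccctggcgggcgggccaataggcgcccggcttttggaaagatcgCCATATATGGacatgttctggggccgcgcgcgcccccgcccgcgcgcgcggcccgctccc
Myl6: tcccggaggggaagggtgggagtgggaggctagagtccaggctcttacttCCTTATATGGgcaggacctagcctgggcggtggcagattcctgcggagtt
Myo1e: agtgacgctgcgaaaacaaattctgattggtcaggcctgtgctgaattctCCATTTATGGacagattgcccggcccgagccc
The first base of the match lay 73 bases before the start in Acta1, 61 in Myl7, 90 in Actg1, 50 in Myl6 and 32 in Myo1e. Acta1 had 1 read in each DMSO library and 0 with TMP269, and Myl7 had 0, 1, 2 and 1 reads across DMSO replicates 1 and 2 and TMP269 replicates 1 and 2. Myl6 was at 7264 and 8061 normalised reads in DMSO and 6534 and 7733 with TMP269, so its groups overlapped (log2 fold change -0.11 ± 0.10 SE, limma adjusted p = 0.466). Myo1e was at 373 and 316 in DMSO and at 329 in both TMP269 libraries, inside the DMSO range (limma adjusted p = 0.748). The motif is a match of letters only, and these data hold no measure of SRF binding.

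With TMP269, 4 members rose and 2 fell. Those that rose were Actn1, a non-muscle alpha-actinin, and the unconventional myosins Myo5a, Myo18a and Myo1g, each by 1.23-fold to 1.37-fold. The non-muscle tropomyosin gene Tpm4 fell to 0.786-fold and Myh11, the smooth muscle myosin heavy chain gene, fell to 0.214-fold. The 6 calls were 14.6% of the 41 tested members, whereas 27.5% of all tested genes were called, 12.8% higher and 14.7% lower. The difference between these shares was not tested. The median log2 fold change of the tested members was 0.08, against 0.00 over the 12535 genes. Groups did not overlap in 22 of the 41 members, 13 higher and 9 lower with TMP269, where 66.6% of all tested genes had separate groups. Myo16 and Myo18b, which each passed the filter through 1 group only, are among the 22. Without DMSO replicate 2 the set of called members changed, with Tpm4, Myo18a and Myo1g no longer in it, and the members' median was -0.03.

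**Figure D1:**
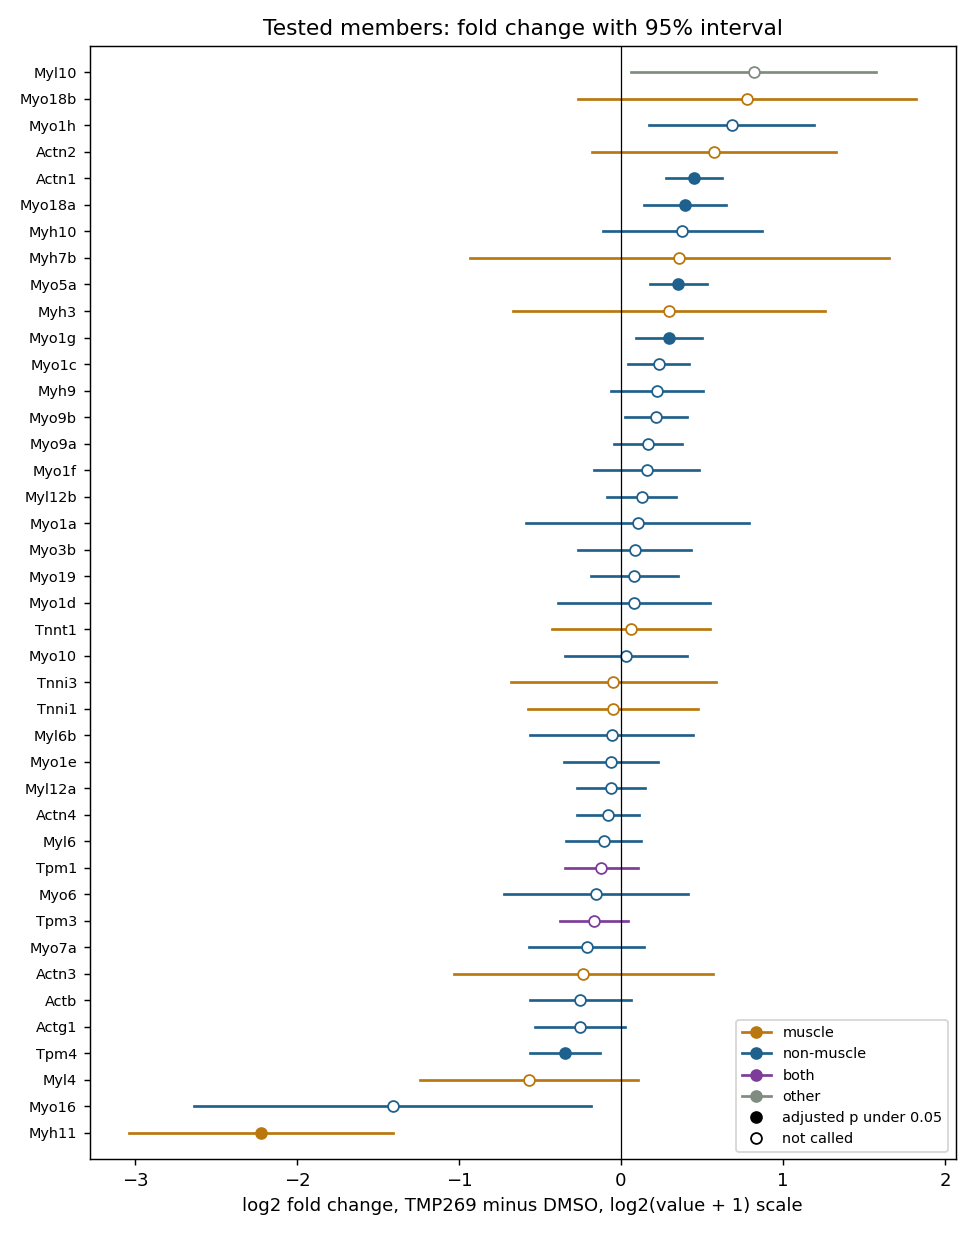
Log2 fold change of the 41 tested members (TMP269 minus DMSO, log2(value + 1) scale), with bars for the 95% interval from limma and n = 2 libraries per group. Colour gives the isoform class, filled points are the 6 called members, and Myh11 lies farthest from 0 at -2.22.

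The classes held very different read numbers. The muscle class summed to 330 to 395 normalised reads in the 4 libraries, 0.129% to 0.152% of the members' total, and its largest group mean was 79.1. Of the 24 muscle genes 10 were tested, with 0 higher and 1 lower, and a median log2 fold change of 0.01. Of the 14 left out, 8 never had more than 3 reads in a library, and Myh15 was at 0 in all 4. In the non-muscle class 15 of 34 genes had a mean of at least 1000 in either group, and 28 were tested. In this class 4 genes rose and 1 fell (17.9% called), with a median log2 fold change of 0.08. Of all tested genes 27.5% were called, 12.8% higher and 14.7% lower. Leaving out DMSO replicate 2 moved the muscle median to -0.20 and the non-muscle median to 0.00. Leaving out DMSO replicate 1 moved them to 0.18 and 0.17.

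**Figure D2:**
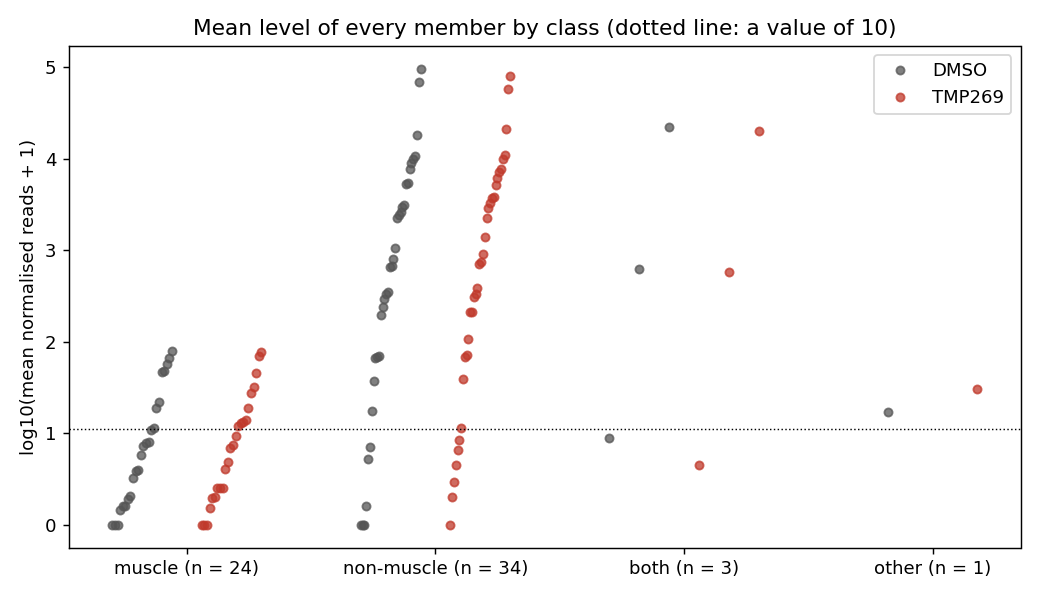
Mean normalised reads of each of the 62 members in DMSO and TMP269 (log10 of mean + 1, n = 2 libraries), by isoform class; each point is a gene and the dotted line marks a value of 10. No muscle gene has a mean above 79.1 normalised reads in both groups, and values are not divided by length.

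Cytoplasmic actin genes supply the filaments themselves. Actb, encoding beta-actin, was at 96861 and 94446 normalised reads in DMSO and at 83828 and 77194 with TMP269. Actg1, encoding gamma-actin, was at 68004 and 67515 in DMSO and 59038 and 54820.1 with TMP269. Both genes were lower in both TMP269 libraries than in either DMSO library, with log2 fold changes of -0.25 ± 0.14 (Actb) and -0.25 ± 0.12 (Actg1, SE), and neither was called by limma (adjusted p = 0.200 and 0.157). DESeq2 on recovered reads called both (adjusted p = 0.0337 and 0.0289). With library totals made equal their log2 fold changes were -0.15 and -0.15. The share of Actb in the reads of the pair stayed between 58.3% and 58.8% in the 4 libraries. Muscle actin genes were near absent, with Acta2, the smooth muscle alpha-actin gene, at 4 and 5 reads in DMSO and 1 and 7 with TMP269. Processed pseudogenes of Actb and Actg1 could have taken some of their reads.

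Alpha-actinins crosslink actin filaments and link them to adhesion sites. Actn1 was at 2409.6 and 2392 normalised reads in DMSO and at 3371 and 3194 with TMP269. Both TMP269 libraries lay well above the DMSO pair, whose values were close together. The rise was 1.37-fold (log2 fold change 0.45 ± 0.08, 95% interval 0.28 to 0.62, limma adjusted p = 0.00389). Actn4, the other non-muscle gene, was at 10411 and 10653 in DMSO and 10349 and 9614 with TMP269 (log2 fold change -0.08 ± 0.08, limma adjusted p = 0.514), and its sign turned with equal library totals (0.03). Reads of Actn1 were 18.8% and 18.3% of the pair in DMSO and 24.6% and 24.9% with TMP269, a share that does not depend on the size factors. The Z disc genes Actn2 and Actn3 were low. Actn2 was at 19.8 and 15.7 in DMSO and 27.9 and 25.6 with TMP269 (limma adjusted p = 0.226), and Actn3 at 22.5, 19.3, 15.5 and 19.9 in the same order (limma adjusted p = 0.655).

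Tropomyosins lie along actin filaments and set which myosins and severing proteins reach them. Tpm4 was at 9260.4 and 10549 normalised reads in DMSO and at 7414 and 8134 with TMP269, with both TMP269 libraries lower. Its log2 fold change was -0.35 ± 0.10 (limma adjusted p = 0.0266). The call was lost with equal library totals (0.0559), without DMSO replicate 2 (0.126) and without TMP269 replicate 1 (0.182). Tpm3 was at 21871 and 22783 in DMSO and 19912 and 19882 with TMP269, and Tpm1 at 603 and 646 in DMSO and 565 and 582 with TMP269. For both the TMP269 values were the lower ones, and neither was called (limma adjusted p = 0.206 and 0.389). Their log2 fold changes were -0.17 ± 0.09 for Tpm3 and -0.12 ± 0.10 for Tpm1 (SE). Tpm4 took 29.2% and 31.0% of tropomyosin reads in DMSO and 26.6% and 28.4% with TMP269, and Tpm3 took 68.9% and 67.05% against 71.4% and 69.5%. Counts per gene do not tell muscle from non-muscle transcripts of Tpm1 and Tpm3. Tpm2 was not tested, with 15 and 2 reads in DMSO and 5 and 2 with TMP269.

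**Figure D3:**
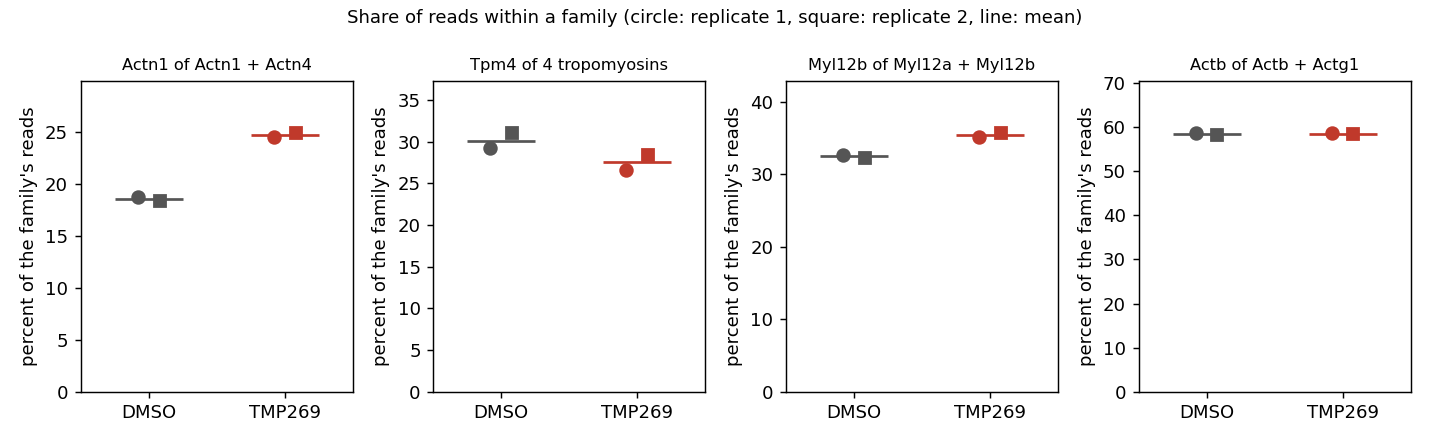
Percent of a family's reads taken by one member in each library, with n = 2 libraries per group and the mean as a line. Actn1 takes 18.3% to 18.8% in DMSO and 24.6% to 24.9% with TMP269, while Actb stays between 58.3% and 58.8%.

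Among class II heavy chains, Myh9 encodes non-muscle myosin IIA. It was at 20328 and 15961 normalised reads in DMSO and 21989 and 20105 with TMP269, so that DMSO replicate 2 was low and the groups overlapped. Its log2 fold change of 0.22 ± 0.13 was not called (limma adjusted p = 0.214), but it was called without DMSO replicate 1 (0.0262). Myh10, encoding myosin IIB, was at 344 and 240.0 in DMSO and 456 and 307 with TMP269, also overlapping (limma adjusted p = 0.220). The log2 fold change of Myh10 was 0.38, with 0.64 without DMSO replicate 1 and 0.66 without TMP269 replicate 2. It was 0.12 without DMSO replicate 2 and 0.09 without TMP269 replicate 1. In both genes replicate 1 was the higher library of each group. Myh14, encoding myosin IIC, had 0 reads in DMSO and 1 in each TMP269 library. Myh9 took 98.0% to 98.5% of the reads of the 3 non-muscle heavy chain genes in every library.

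Myosin II also carries light chains, of which the regulatory ones switch its activity by phosphorylation. The non-muscle regulatory light chain genes Myl12a and Myl12b lie next to each other, are very alike in sequence, and could share reads. Myl12a was at 5091 and 5785 in DMSO and 4934 and 5471 with TMP269, and Myl12b at 2472 and 2749 in DMSO and 2673 and 3035 with TMP269. Groups overlapped in both, and neither was called (limma adjusted p = 0.647 and 0.334). Their ratio moved: Myl12b took 32.7% and 32.2% of the pair's reads in DMSO and 35.1% and 35.7% with TMP269, with no overlap. Essential light chains stabilise the neck of the heavy chain, and Myl6b, a second gene of this type that neighbours Myl6, was at 65.1 to 72.9 in DMSO and 59.9 to 73.1 with TMP269 (limma adjusted p = 0.870). Myl10, a regulatory light chain described in lymphocyte precursors, was at 16.2 and 15.7 in DMSO and 25.8 and 32.3 with TMP269. These groups were separate, with a log2 fold change of 0.82 ± 0.33, and Myl10 did not pass the test (limma adjusted p = 0.0989).

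Of the 23 unconventional myosin genes 18 were tested, 3 rose and 0 fell. Calls were 16.7% of the 18, against 27.5% of all tested genes, of which 12.8% rose. Myo5a, a processive motor that carries organelles, was at 3029 and 2880.2 normalised reads in DMSO and 3876 and 3675 with TMP269. Its rise was 1.28-fold (log2 fold change 0.35 ± 0.08, limma adjusted p = 0.0112), and the call was lost without TMP269 replicate 1 (0.0754). Myo18a, a myosin that binds Golgi membrane and mixes into myosin II filaments, was at 1185 and 949 in DMSO and 1390.2 and 1401 with TMP269. It rose 1.32-fold (log2 fold change 0.40 ± 0.11, limma adjusted p = 0.0290), with a wide DMSO pair and close TMP269 values, and was not called without DMSO replicate 2 (0.156). Myo1g, a class I myosin of blood cells that sits at the plasma membrane, was at 9427 and 8471 in DMSO and 11387 and 10582 with TMP269. It rose 1.23-fold (log2 fold change 0.30 ± 0.09, limma adjusted p = 0.0397). That call was lost without DMSO replicate 2 (0.184), TMP269 replicate 1 (0.260) or TMP269 replicate 2 (0.0752), and without a filter on low values.

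Other class I genes are membrane tethers of the same kind. Of 7 tested, 6 had a positive and 1, Myo1e, a negative log2 fold change (0.042 for Myo1e with equal library totals), and only Myo1g was called. Myo1c was at 3243 and 3015 in DMSO and 3835 and 3524 with TMP269, and Myo1h at 77.4 and 56.7 in DMSO and 116 and 98.8 with TMP269. In both the TMP269 libraries were the higher ones, and neither passed the test (limma adjusted p = 0.0657 for Myo1c and 0.0511 for Myo1h). Myo1h was called higher with a pseudocount of 5, with a filter of 50, with totals made equal outside the 20 most abundant genes and without DMSO replicate 1. Myo9b, which carries a RhoGAP domain, was at 5517 and 5046 in DMSO and 6355 and 5908 with TMP269 (log2 fold change 0.22 ± 0.08, limma adjusted p = 0.0893). With equal library totals Myo1c and Myo9b were called higher (limma adjusted p = 0.0365 and 0.0451), a setting that raised the median over the 12535 genes to 0.10. Myo10, a motor of filopodia, followed the replicate number rather than the treatment, at 2581 and 1861 in DMSO and 2586 and 1947 with TMP269 (limma adjusted p = 0.896). The class IX gene Myo9a (642 and 671 in DMSO, 742 and 734 with TMP269) had separate groups and was not called (limma adjusted p = 0.204).

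The remaining tested unconventional myosins, Myo1a, Myo1d, Myo1f, Myo3b, Myo6, Myo7a, Myo16, Myo18b and Myo19, were not called. Myo16 was at 22.5 and 10.9 in DMSO and 7.24 and 3.80 with TMP269 (limma adjusted p = 0.0842), and the muscle gene Myo18b at 8.10 and 6.03 in DMSO and 11.4 and 14.2 with TMP269 (limma adjusted p = 0.234). Both had separate groups, but Myo16 passed the filter through DMSO only and Myo18b through TMP269 only. Each was higher in that group, so the filter favoured the direction each one shows. At these levels the intervals were wide (log2 fold change -2.63 to -0.18 for Myo16 and -0.26 to 1.82 for Myo18b). Myo6 was at 283 and 387 in DMSO and 224 and 394 with TMP269, and its groups overlapped. Among the untested, Myo5b had 0 reads in both DMSO libraries and 10 and 5 with TMP269. Set against a floor of 3 reads over the DMSO group, its 15 reads with TMP269 were 5.14-fold higher after scaling for depth. That ratio takes the 15 reads as exact, so it is not a lower limit. Without a filter on low values Myo5b was called higher. Myo5c, which neighbours Myo5a, had 4 and 4 reads in DMSO and 8 and 13 with TMP269.

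**Figure D4:**
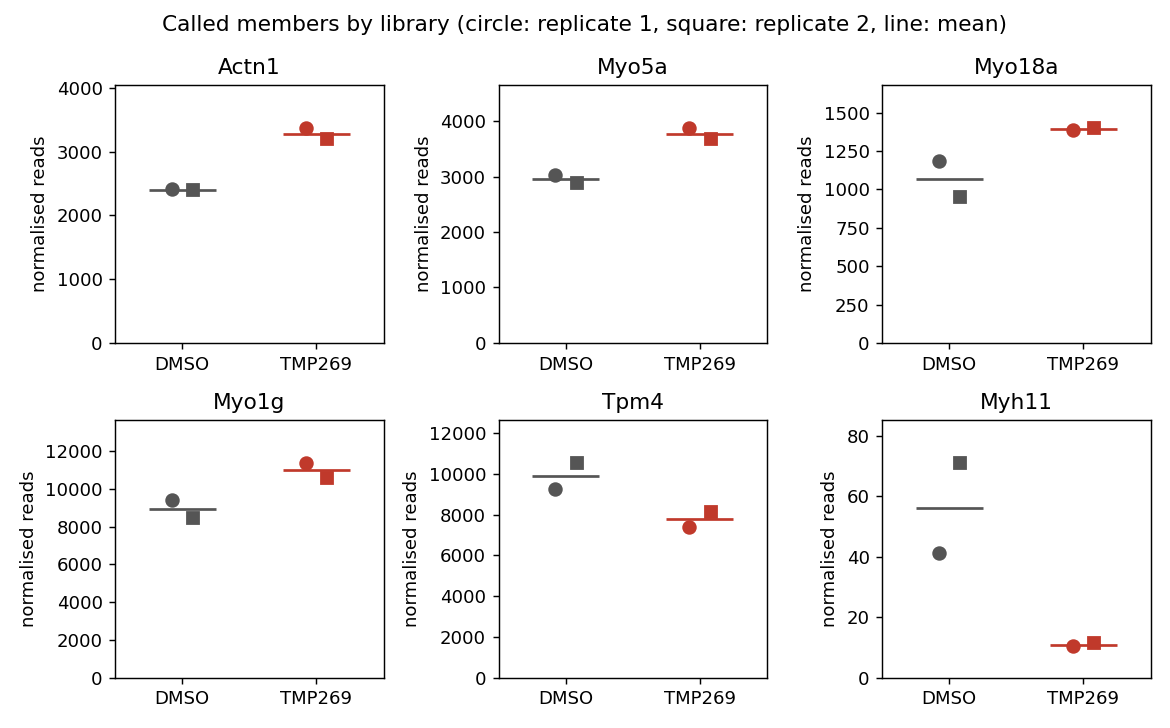
Normalised reads of the 6 called members in each library, with circles for replicate 1, squares for replicate 2 and a line for the mean of n = 2. The groups are separate in all 6 panels, and Myh11 lies at 10.3 and 11.4 with TMP269 against 41.4 and 71.2 in DMSO.

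In the muscle class only Myh11 was called. It was at 41.4 and 71.2 normalised reads in DMSO (46 and 59 reads) and at 10.3 and 11.4 with TMP269 (10 and 12 reads), a 4.67-fold fall (log2 fold change -2.22 ± 0.36, 95% interval -3.04 to -1.41, limma adjusted p = 0.00331). The DMSO libraries differed from each other, and both TMP269 libraries lay far below them. Of the 16 stromal, smooth muscle and endothelial markers with a row, 5 were tested, 1 rose and 0 fell (20.0% called, against 27.5% of all tested genes). The 1 that rose was Notch3, in the direction opposite to Myh11. It was at 72.9 and 54.3 normalised reads in DMSO and 263 and 303 with TMP269 (limma adjusted p = 3.15e-04). The summed level of the 16 markers was 4047 and 4008 normalised reads in DMSO and 4282 and 3849 with TMP269. Pdpn alone, a podoplanin gene that T cells can also express, had 2443 to 3303 reads. The smooth muscle genes of that list, Cnn1 (calponin) and Myocd (a coactivator of SRF), had no library above 2 reads. Tagln, another gene of smooth muscle, was called in the direction opposite to Myh11 (31.5 and 38.6 in DMSO, 62.0 and 58.9 with TMP269, limma adjusted p = 0.0483). Markers of B cells moved in the same direction as Myh11, with 10 of 16 lower (62.5%, against 14.7% of all tested genes) and 0 higher. Fewer of these markers were called lower without TMP269 replicate 1, as over all tested genes. Their summed level was 6877 and 7184 normalised reads in DMSO and 4192 and 4199 with TMP269, and all 16 had reads in every library. Bank1, a B cell scaffold gene, was at 424 and 456 in DMSO and 119.9 and 99.7 with TMP269. The part of B cells in the Myh11 result was not tested, and in bulk RNA fewer cells of a type and less RNA per cell cannot be told apart.

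Troponin genes were measured at low levels and 0 of 3 tested were called. Tnni1, the slow skeletal inhibitory subunit, was at 70.2 and 88.0 in DMSO and 66.2 and 87.4 with TMP269. Tnnt1, the slow tropomyosin-binding subunit, was at 72.0 and 60.3 in DMSO and 69.3 and 68.4 with TMP269, and its neighbour Tnni3, the cardiac inhibitory subunit, at 56.7, 37.4, 45.5 and 43.7. All 3 had overlapping groups (limma adjusted p = 0.896, 0.854 and 0.917). Their 95% intervals ran from a log2 fold change of -0.57 to 0.48 in Tnni1, -0.43 to 0.55 in Tnnt1 and -0.68 to 0.59 in Tnni3. The calcium-binding subunit genes Tnnc1 and Tnnc2 reached at most 10 and 5 reads in a library, and Tnni2, Tnnt2 and Tnnt3 at most 4, 9 and 10.

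Other sarcomere chains were equally sparse. Myl4, the atrial and embryonic essential light chain, was at 45.0 and 47.0 in DMSO and 24.8 and 38.0 with TMP269, separate, and did not pass the test (log2 fold change -0.57 ± 0.30, limma adjusted p = 0.184). Myh3, the embryonic heavy chain, had 10 and 9 reads in DMSO and 12 and 13 with TMP269, and Myh7b, a slow-type chain, was at 16.2, 4.82, 11.4 and 12.3 normalised reads (limma adjusted p = 0.633 and 0.668). The cardiac genes Myh6, Myh7 and Myl2 had at most 1, 2 and 1 reads in any library. Des had at most 1 read and Ckm at most 3. These levels allow no statement on their change, which was not detectable at this depth.

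Genes outside the families that control or accompany them are given from lists chosen by known function. In the list of light chain kinases, phosphatase subunits and small GTPase control, 4 of 33 tested genes rose and 4 fell. The rises included Dapk1, a kinase that can phosphorylate the regulatory light chain (1.99-fold, from 302 ± 24.0 to 599.6 ± 23.2, SD of 2 libraries, limma adjusted p = 8.57e-04), the small GTPase gene Rhoc (1.52-fold) and the RhoGAP gene Hmha1 (1.35-fold). The falls included Ppp1r14b, an inhibitor of the myosin phosphatase (0.728-fold), Rnd3, an antagonist of RhoA signalling (0.459-fold), and Arhgdia, which holds small GTPases inactive (0.784-fold). Its 8 calls were 24.2% of the list, against 27.5% of all tested genes, and without DMSO replicate 2 2 rose and 1 fell. That left Hmha1 (limma adjusted p = 0.0688), Rnd3 (0.0624) and Arhgdia (0.0652) without a call. Rnd3 was also lost without TMP269 replicate 1 (0.0744) and with DESeq2 (0.118), and Arhgdia without TMP269 replicate 1 (0.116), without TMP269 replicate 2 (0.184) and with equal library totals (0.0612). In the list of actin nucleation, turnover and crosslinking, 7 of 75 rose and 14 fell, with a median log2 fold change of -0.09. Tmsb10, which binds actin monomers, fell from 18702 ± 1008 to 12239 ± 859 (0.654-fold, limma adjusted p = 0.00275), and Elmo1, an activator of Rac, from 2764 ± 7.49 to 1908 ± 6.22 (0.690-fold). Swap70, which binds actin and Rac, fell to 0.715-fold. Coro1b, a coronin of Arp2/3 turnover, rose 1.34-fold and the Rac exchange factor gene Dock2 1.26-fold. Calls were 28.0% of this list, near the background. Without DMSO replicate 2, 3 rose and 8 fell, and Dock2 was not called (limma adjusted p = 0.0528), nor was it without TMP269 replicate 1 (0.130).

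In the list of SRF, its coactivators and known targets, 8 of 26 tested genes rose and 0 fell, with a median log2 fold change of 0.22. Calls were 30.8% of this list, near the 27.5% of all tested genes, of which 12.8% rose and 14.7% fell. Fewer rose without DMSO replicate 2, as over all tested genes. Srf itself was at 2049.7 and 2286 in DMSO and 2089 and 1967 with TMP269 (limma adjusted p = 0.441), with overlapping groups. The coactivator genes Mkl1 and Mkl2 had separate groups, at 1480.1 and 1491 against 1693 and 1721 and at 503 and 504 against 573 and 586, and did not pass the test (limma adjusted p = 0.0861 for Mkl1 and 0.160 for Mkl2). Among the 8 were the immediate early genes Fos (2.24-fold) and Egr1 (1.99-fold) and the ternary complex factor gene Elk4 (1.40-fold). The other 5, named after their values were seen, were the early genes Fosb and Egr2, the LIM domain gene Fhl2, the fibronectin receptor gene Itga5 and Tagln, encoding an actin-binding protein of smooth muscle. Tagln lost its call without any 1 of the 4 libraries (limma adjusted p = 0.0627 to 0.205) and with DESeq2 (0.199). Itga5 lost it without DMSO replicate 2 (0.130) and without TMP269 replicate 1 (0.0866). The list does not include Actb or Actg1, both of which were lower in both TMP269 libraries. The count of 0 that fell therefore does not cover them.

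Of the MEF2 genes, Mef2c was at 425 and 437 normalised reads in DMSO and 113 and 117 with TMP269 (log2 fold change -1.90 ± 0.13, limma adjusted p = 1.27e-04), the same direction as Myh11 and the B cell markers. Mef2b fell as well, from 83.7 and 59.1 to 36.2 and 40.8 (limma adjusted p = 0.0397). That call was lost without DMSO replicate 1 (0.168), without TMP269 replicate 1 (0.118), with DESeq2 (0.122), with equal library totals (0.0838) and with totals equal outside the 20 most abundant genes (0.0691). Mef2a rose 1.29-fold, from 1538 ± 141 to 1978 ± 106 (limma adjusted p = 0.0194), and was not called without DMSO replicate 1 (0.0730) or without TMP269 replicate 2 (0.0837). Mef2d was not called (1367 ± 6.45 and 1411 ± 96.2, limma adjusted p = 0.729). Among the myogenic and MEF2 factors 9 of 15 were tested, 1 rose and 3 fell, with a median log2 fold change of -0.42. Calls were 44.4% of the 9, against 27.5% of all tested genes, and each call other than Mef2c was lost in some alternatives. The third that fell was Prdm16 (0.750-fold), a regulator of muscle and fat fate. Prdm16 was not called without DMSO replicate 1 (limma adjusted p = 0.0682), without TMP269 replicate 2 (0.126), with equal library totals (0.0920) or with totals equal outside the 20 most abundant genes (0.0628). In the list of other sarcomere and excitation genes, 21 of 46 with a row were tested, 6 rose and 0 fell. Calls, all of them rises, were 28.6% of this list. Of all tested genes 27.5% were called, 12.8% higher and 14.7% lower. Fewer rose without DMSO replicate 2 or without either TMP269 library, as over all tested genes. Neb, encoding the thin filament ruler nebulin, was at 312 and 333 in DMSO and 698 and 1070.4 with TMP269, a 2.68-fold rise (limma adjusted p = 0.00118), and Synpo2, an actin-binding Z disc protein gene, rose 2.33-fold from 33.5 ± 4.76 (not called without TMP269 replicate 1, limma adjusted p = 0.0565). Ckmt1, also in this list, encodes a mitochondrial creatine kinase and not a sarcomere protein. It rose 5.67-fold, from 37.8 and 21.7 to 161 and 174. The giant sarcomere gene Ttn, named after its values were seen, was at 16.2 and 13.3 in DMSO and 30.0 and 38.0 with TMP269 (limma adjusted p = 0.0337), and was not called without DMSO replicate 2 (0.0986), TMP269 replicate 1 (0.0790) or TMP269 replicate 2 (0.213), or with DESeq2 (0.161). The list's median log2 fold change was -0.09, since 13 of its 21 tested members had a negative value.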

How the data were processed

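RNA was sequenced in 2 DMSO and 2 TMP269 libraries. The series' 6 chromatin libraries are not analysed here. The build mm9 and, without a role, HTSeq, TopHat2 2.1.0, Bowtie2, DESeq2 and CASAVA 1.4 are named per the submitters' processing notes. The sources used here give no annotation or strand setting, so overlapping, antisense and near-identical genes are uncertain. The deposited values are a normalised signal, read counts divided by one size factor per library, as the values showed: 100% returned whole reads within 1e-06, and edgeR on those reads called 3406 genes. Limma 3.58.1 (R 4.3.3) was run on log2(value + 1), which understates changes of low genes, with a variance trend and two-sided tests. It was tested on simulated data. Exact tests of 2 against 2 libraries cannot go below p = 0.333. Replicates are not described as separate animals or cultures, so p-values reflect only how these libraries varied, possibly for technical reasons. Alternatives were edgeR 4.0.16, DESeq2 1.42.0, voom, other scalings, filters, pseudocounts and thresholds, a replicate block and each library left out.

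Named were called members, those with a mean of at least 1000, muscle genes reaching 10 in a library, and up to 3 called genes each way per list by smallest p, with Srf, Mkl1, Mkl2 and the MEF2 genes. The members, classes and lists were chosen with earlier results of these data known. Some genes the rule names are left out of the text. The marker lists gave these calls: T helper, 3 higher and 2 lower of 14 tested; myeloid and dendritic, 1 and 1 of 8; megakaryocyte and platelet, 1 and 0 of 2; erythroid, 0 and 1 of 1; stromal, smooth muscle and endothelial, 1 and 0 of 5. Over all tested genes 12.8% were called higher and 14.7% lower.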

Additional observations from a re-analysis of the deposited data

How the results depend on the processing

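The calls of Actn1 and Myh11 held under every alternative in which they were tested, 15 and 14. Of 600 pairs of a tested member and an alternative, 528 kept direction and side of the threshold. Part of this was fixed in advance. The alternative at an adjusted p under 0.01 reuses the main fit, so the 35 uncalled members could not change there. With totals equal outside the 20 most abundant genes 7 members rose, and at an adjusted p under 0.01 1 rose, 1 fell and 1487 of all genes were called. The number that fell was 4 with DESeq2, 1 with equal library totals and 1 with a filter of 50. Without 1 library, 2 to 7 members rose, 1 to 3 fell, and 2078 to 3675 of all genes were called. Of all calls 46.5% were higher, but 67.3% with equal library totals and 62.3% with totals equal outside the 20 most abundant genes. Replicate numbers give no shared source. Deviations of same-numbered libraries from their group means correlated at r = 0.371 over genes. With 2 libraries per group the deviations within a group mirror each other, so this value cannot show whether libraries were paired. With the replicate block 10 members rose and 6 fell, of 6360 genes called. Some uncalled members changed sign. With equal library totals, and with totals equal outside the 20 most abundant genes, the log2 fold change was 0.026 and 0.0021 for Actn4, 0.042 and 0.018 for Myl12a, 0.046 and 0.023 for Myl6b, 0.042 and 0.018 for Myo1e, 0.055 and 0.032 for Tnni1 and 0.056 and 0.032 for Tnni3. Without 1 library it ran from -0.42 to 1.14 for Myh7b, -0.15 to 0.029 for Myl12a, -0.23 to 0.015 for Myl6, -0.20 to 0.085 for Myl6b, -0.20 to 0.27 for Myo10, -0.028 to 0.19 for Myo19, -0.18 to 0.38 for Myo1a, -0.18 to 0.056 for Myo1e, -0.031 to 0.35 for Myo1f, -0.029 to 0.20 for Myo3b, -0.56 to 0.25 for Myo6, -0.25 to 0.15 for Tnni1, -0.34 to 0.25 for Tnni3 and -0.064 to 0.19 for Tnnt1. The cause was not tested, except that Myh11 did not pass the filter of 50 and a stricter threshold can only lower a count. Family shares per coding length were not run. Depth limits the muscle class, of which 14 genes were untested.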
